A study of Mus musculus with 4 samples.

Results

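A set of 220 genes was high in neural stem cells and at the fibroblast level in induced neural stem cells, out of 18193 mouse genes with a probe set on the array. A gene was a member if its signal in NSC, primary-derived neural stem cells, was at least 4-fold that in MEF, mouse embryonic fibroblasts, while both induced samples lay within 2-fold of MEF. The induced samples were iNSC_13F and iNSC_14F, neural stem cells induced with 13 and with 14 factors. Signals below a floor of 104 were first set to that floor, which caps how far a signal can fall below MEF. Each gene was read from the probe set with the highest mean. Symbols beginning with Sox and the genes Prom1, Nnat, Pdgfra and Ugt8a were left out by the rule, which removed 4 genes that met it. The rule used all 4 arrays, so the levels of the members are a description of how they were chosen, with no test, and they support nothing beyond it.

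Both induced samples and NSC were grown in N2 medium, a serum-free medium, with laminin and the growth factors EGF (20 ng/ml) and bFGF (20 ng/ml), as the labels' protocols state. The sources used here do not give the culture of MEF. The series title names liver cells of adult mice and B-lymphocytes as what was reprogrammed, and the labels do not say which gave rise to which induced sample. The source field calls all 4 samples embryonic stem cells and was not used. Each population was measured on 1 array, so no difference has a replicate check and no error can be given.

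Neural stem cells of the postnatal and embryonic brain divide in response to EGF and bFGF and give rise to neurons, astrocytes and oligodendrocytes. Besides the transcription factors that define them, they carry receptors for neurotransmitters, peptides and growth factors and adhesion molecules of the neural lineage. When cells of another lineage are turned into induced neural stem cells, genes of the target state may be taken up to different degrees.

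The 4 arrays had the same trimmed mean signal of 500, and between 9852 and 10557 genes were above the floor on each. The hybridization controls, which are foreign transcripts spiked into every sample, were lower on the NSC array. They were 2.11-fold higher on iNSC_13F, 1.86-fold higher on iNSC_14F and 1.85-fold higher on MEF than on NSC. With the arrays scaled to these controls 723 genes met the rule, and why the controls were lower on NSC was not tested. Summed signals of 10 neural stem cell markers were 81820 in iNSC_13F, 83306 in iNSC_14F and 80432 in NSC, against 3671 in MEF, and 9, 10, 10 and 5 of them were above the floor. Those of 14 fibroblast markers were 3792, 5326 and 1470, against 315148 in MEF. No hepatocyte marker was above the floor on any array. For B lymphocytes 9 markers could be read, of which 3 exceeded the floor in iNSC_13F and 2 each in iNSC_14F, NSC and MEF. The B lymphocyte markers summed to 1191 in iNSC_13F, 498 in iNSC_14F and 859 in NSC, against 1104 in MEF. The part of the starting cells in these levels was not tested.

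The stretches before the start sites of 6 members show how differently these genes begin. Itgb8 and Nucks1 were above the floor on all 4 arrays, Ramp1 was above the floor in MEF and below it in both induced samples, Gria4 encodes a glutamate receptor subunit, and Gabrg1 and Gabra2 are neighbours. The 250 bases before the start are given 5′ to 3′ on the strand of the gene, from RefSeq (GRCm38.p6), with each CpG, the dinucleotide at which mammalian DNA is methylated, in capitals. All 6 stretches lie outside the annotated span of their gene.
Itgb8: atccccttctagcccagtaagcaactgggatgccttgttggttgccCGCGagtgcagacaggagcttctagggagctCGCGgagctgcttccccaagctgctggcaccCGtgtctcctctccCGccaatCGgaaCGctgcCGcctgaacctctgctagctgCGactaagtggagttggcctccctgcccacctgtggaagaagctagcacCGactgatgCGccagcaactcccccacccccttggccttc
Nucks1: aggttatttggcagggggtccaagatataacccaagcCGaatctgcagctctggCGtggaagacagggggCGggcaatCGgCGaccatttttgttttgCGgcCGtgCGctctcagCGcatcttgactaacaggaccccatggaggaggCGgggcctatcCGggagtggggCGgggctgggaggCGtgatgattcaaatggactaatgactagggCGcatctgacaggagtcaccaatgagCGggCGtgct
Ramp1: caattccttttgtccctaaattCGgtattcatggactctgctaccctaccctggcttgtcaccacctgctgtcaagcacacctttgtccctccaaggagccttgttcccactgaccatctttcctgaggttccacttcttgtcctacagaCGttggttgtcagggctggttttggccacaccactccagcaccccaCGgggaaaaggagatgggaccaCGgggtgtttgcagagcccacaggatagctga
Gria4: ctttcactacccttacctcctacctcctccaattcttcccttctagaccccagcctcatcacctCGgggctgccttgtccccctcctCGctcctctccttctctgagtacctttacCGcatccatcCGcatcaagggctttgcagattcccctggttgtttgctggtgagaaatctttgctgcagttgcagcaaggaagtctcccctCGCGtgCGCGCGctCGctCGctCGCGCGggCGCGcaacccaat
Gabrg1: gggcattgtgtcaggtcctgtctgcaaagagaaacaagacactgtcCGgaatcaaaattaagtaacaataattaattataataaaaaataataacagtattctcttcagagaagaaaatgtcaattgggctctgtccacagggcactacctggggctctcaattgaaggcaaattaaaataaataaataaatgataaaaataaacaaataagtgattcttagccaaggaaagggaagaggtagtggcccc
Gabra2: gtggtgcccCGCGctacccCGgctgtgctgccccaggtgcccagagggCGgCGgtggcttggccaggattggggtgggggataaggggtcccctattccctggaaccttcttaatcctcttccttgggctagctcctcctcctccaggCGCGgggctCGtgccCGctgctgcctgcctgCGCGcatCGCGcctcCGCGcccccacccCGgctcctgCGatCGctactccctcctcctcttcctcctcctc
The stretch of Itgb8 is chr12:119238277-119238526 on the minus strand and that of Nucks1 is chr1:131910208-131910457 on the plus strand. Ramp1 is at chr1:91179572-91179821 on the plus strand. Gria4 is at chr9:4796235-4796484, Gabrg1 at chr5:70842618-70842867 and Gabra2 at chr5:71095850-71096099, all on the minus strand. Gabrg1 had 1 CpG and Gabra2 had 18, although both genes were above the floor in NSC alone. Ramp1 had 4, Itgb8 12, and Nucks1 and Gria4 16 each.

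Of the 688 genes at least 4-fold higher in NSC than in MEF after the exclusions, the 220 members made up 32.0%. A further 188 (27.3%) were within 2-fold of NSC on both induced arrays, and 280 were neither. Before the exclusions 700 of 11491 genes tested had passed the 4-fold rule, which is 6.09%. In iNSC_13F 199 members were at least 4-fold lower than in NSC, against 11.3% of all genes tested, and in iNSC_14F 179 were, against 9.40%. These shares were set by the rule, and nothing is read from them. With the arrays scaled to the hybridization controls the rule found 723 genes, 215 of them among the 220, and with only genes above the floor on all 4 arrays it found 88.

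Member signals had a median of 96.0 in iNSC_13F, 129 in iNSC_14F and 1006 in NSC, against 135 in MEF. The brightest member reached 3469, 5313 and 22328, against 5335 in MEF. Bounds were common, because 88 members were below the floor in MEF, 90 were below it on both induced arrays and 56 were above it in NSC alone. A fold against such an array is a lower bound and is written "at least". Some members were above the floor in MEF and below it on both induced arrays. Zfp267, for example, had 2.06 in iNSC_13F and 2.01 in iNSC_14F, against 206.9 in MEF. Such genes met the rule at the floor, so how far they fell below MEF is not known. In NSC 111 members had a signal of at least 1000 and 18 a signal of at least 5000. The median log2 difference was 2.53 for NSC minus MEF, -2.69 for iNSC_13F minus NSC and -2.57 for iNSC_14F minus NSC. Over the 12318 genes that passed the floor somewhere the same medians were 0.00, 0.17 and 0.15. In RNA from whole cultures, fewer cells of a type and less RNA per cell cannot be told apart.

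**Figure D1:**
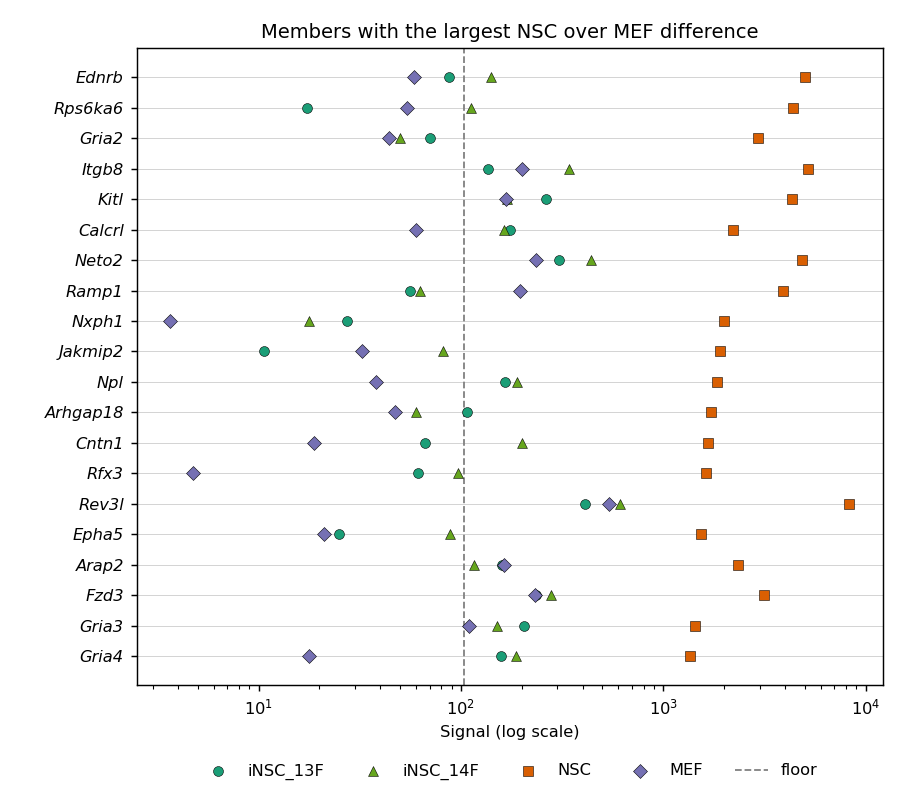
Signal (log scale) of the 20 members with the largest NSC over MEF difference, with a circle for iNSC_13F, a triangle for iNSC_14F, a square for NSC and a diamond for MEF (1 array each) and the floor of 104 as a dashed line. The NSC square lies right of the other 3 marks in each row, for Ednrb at 5003 in NSC, against 58.9 in MEF.

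Members near the thresholds differed little from genes that missed them. Trim44 and Glcci1 passed with an NSC minus MEF difference of 2.00 (log2) and Pcmtd2 with 2.01, while Thumpd3 and Fut8 missed at 1.99 and Arid4a at 1.98. For the distance of the farther induced array from MEF, Phkb and Kiz were inside at 1.00 and Zfp267 at 0.99, and Pola1, Zfp105 and Elovl6 were outside at 1.01.

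Ednrb, the endothelin receptor B gene (chr14:103814615-103844508), had signals of 87.0 in iNSC_13F, 140.2 in iNSC_14F and 5003 in NSC, against 58.9 in MEF. It was at least 48.1-fold higher in NSC than in MEF, at least 48.1-fold lower in iNSC_13F than in NSC and 35.7-fold lower in iNSC_14F. NSC alone was high, and the other 3 arrays lay near or below the floor. Of 6 genes of the endothelin pathway with a probe set, Ednrb was the single one at least 4-fold higher in NSC.

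The receptor for the peptides CGRP and adrenomedullin is built from a receptor protein, encoded by Calcrl, and an accessory protein that sets its ligand, encoded for CGRP by Ramp1. Calcrl had signals of 175.3 in iNSC_13F, 164.1 in iNSC_14F and 2202 in NSC, against 60.0 in MEF. Ramp1 had 56.1, 62.9 and 3926, against 195.4 in MEF. Both genes were high in NSC alone, and Ramp1 in the induced samples was below the floor where MEF was above it. Calcrl was at least 21.2-fold and Ramp1 20.1-fold higher in NSC than in MEF. Of 9 genes of this receptor system with a probe set, these 2 were high in NSC and both were members, against 32.0% of all genes that were high in NSC. The list was drawn up after the values were seen. The related gene Ramp2 went the other way, with 386.4 in iNSC_13F, 678.4 in iNSC_14F and 228.8 in NSC, against 140.9 in MEF. Ramp3 was above the floor in MEF alone.

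Signals that act between cells were also among the members. Kitl, the ligand of the receptor Kit, had 262.3 in iNSC_13F, 168.6 in iNSC_14F and 4325 in NSC, against 167.2 in MEF, and was 25.9-fold higher in NSC than in MEF. It was the 1 member among 47 genes of receptor tyrosine kinases and their ligands. Of these 6 were high in NSC, so members made up 16.7%, against 32.0% of all genes that were high in NSC. Fzd3, a Wnt receptor, had 234.0, 277.9 and 3153, against 233.4 in MEF. Lifr, a subunit of the receptor for leukaemia inhibitory factor, had 290.2, 343.4 and 3100, against 370.7 in MEF. In these 3 genes all 4 arrays were above the floor, and the induced samples lay close to MEF and about an order of magnitude below NSC. This holds for the brightest probe set of Fzd3, while the median of its probe sets gave an iNSC_13F minus NSC difference of 0.02 (log2). Itgb8, an integrin subunit that takes part in activating latent TGF-beta, had 135.8 in iNSC_13F, 342.9 in iNSC_14F and 5175 in NSC, against 199.4 in MEF. It was 26.0-fold higher in NSC than in MEF, with iNSC_13F below MEF and iNSC_14F above it.

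Fast excitation in the brain runs through ionotropic glutamate receptors, of which the AMPA type is built from subunits encoded by Gria1 to Gria4. Of 16 ionotropic glutamate receptor genes with a probe set, 4 were at least 4-fold higher in NSC than in MEF and all 4 were members, against 32.0% of all such genes. Over the 10 above the floor on some array the median was 0.73 (log2) for NSC minus MEF and -0.73 for both comparisons of the induced samples with NSC. Gria2 (chr3:80681450-80804227) had signals of 70.7 in iNSC_13F, 49.97 in iNSC_14F and 2952 in NSC, against 44.2 in MEF, and was at least 28.4-fold higher in NSC. Gria3 had 206.2, 150.6 and 1432, against 109.2 in MEF, and Gria4 had 158.7, 187.8 and 1363, against 17.7 in MEF. All 3 were high in NSC alone, but Gria2 was below the floor in the induced samples and Gria3 and Gria4 were above it. Gria1 was below the floor on every array. Grin3a, an NMDA receptor subunit, had 69.9 in iNSC_13F, 122.7 in iNSC_14F and 674.3 in NSC, against 47.7 in MEF. Neto2, an auxiliary protein of kainate-type glutamate receptors, had 306.4, 439.7 and 4841, against 236.2 in MEF, and was 20.5-fold higher in NSC than in MEF. Its 1 other probe set above the floor in NSC did not meet the rule. It read 263.5 in iNSC_13F, 333.7 in iNSC_14F and 698.1 in NSC, against 124.7 in MEF. By it iNSC_13F was 1.08 and iNSC_14F 1.42 (log2) above MEF.

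Inhibitory receptors and potassium channels gave smaller numbers. Of 16 GABA and glycine receptor genes 2 were high in NSC and both were members, against 32.0% of all genes that were high in NSC. They were the GABA-A receptor subunits Gabrg1 and Gabra2. Gabrg1 had 44.3 in iNSC_13F, 8.48 in iNSC_14F and 1272 in NSC, against 2.83 in MEF, and Gabra2 had 43.7, 44.0 and 449.3, against 21.2 in MEF. They lie 116 kb apart on chromosome 5 and were above the floor in NSC alone. Kcna2, a voltage-gated potassium channel, had 23.5 in iNSC_13F, 46.5 in iNSC_14F and 811 in NSC, against 1.71 in MEF. Kcnj16, an inwardly rectifying channel, had 50.6, 11.01 and 473.9, against 4.27 in MEF. Both were high in NSC alone. With a pseudocount of 16 in place of the floor Kcna2 had an NSC minus MEF difference of -0.46 (log2). That value matches another Kcna2 probe set, below the floor on every array, with 51.1 in NSC, against 76.4 in MEF. Another 4 of the 49 potassium channel genes were high in NSC without being members, so members made up 33.3%, against 32.0% of all such genes. None of 24 voltage-gated sodium and calcium channel genes was at least 4-fold higher in NSC.

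Adhesion molecules of the neural lineage gave 8 members. Of 57 with a probe set 19 were high in NSC, and 8 of these (42.1%) were members, against 32.0% of all genes that were high in NSC, 7 were at the NSC level on both induced arrays and 4 were neither. The list had a median of 1.47 (log2) for NSC minus MEF, -0.95 for iNSC_13F minus NSC and -0.40 for iNSC_14F minus NSC. None of the 8 members was above the floor in MEF, and 5 were below it on both induced arrays. Cntn1, a contactin of axons and glia, had 66.2 in iNSC_13F, 200.9 in iNSC_14F and 1664 in NSC, against 18.8 in MEF. Opcml had 43.0, 84.0 and 1016, against 4.73 in MEF, and Ntm, its relative in the same family of GPI-anchored cell surface proteins, had 183.4, 61.3 and 587.9, against 57.7 in MEF. These genes span 1130 and 969 kb, lie 69.3 kb apart on chromosome 9 and were high in NSC alone. Pcdh11x and Pcdh17, both protocadherins, reached 1268 and 762.5 in NSC, Lrrn3 1248 and the cadherin Cdh19 703.7.

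Guidance receptors and proteins of neurons and synapses were also among the members. Epha5, an ephrin receptor, had 24.95 in iNSC_13F, 88.5 in iNSC_14F and 1532 in NSC, against 21.1 in MEF, and Dcc, the netrin receptor, had 36.3, 49.8 and 524.4, against 0.707 in MEF. They were 2 of 6 axon guidance genes that were high in NSC (33.3%, against 32.0% of all such genes). Of 13 neuron and synapse genes that were high in NSC, 5 were members (38.5%, against 32.0% of all such genes), 3 were at the NSC level and 5 were neither. Elavl2 and Elavl4 encode neuronal RNA-binding proteins. Elavl2 had 42.2 in iNSC_13F, 65.0 in iNSC_14F and 1883 in NSC, against 158 in MEF, and Elavl4 had 143.1, 125.2 and 828.1, against 11.6 in MEF. Elavl1, the member of this family that most cells express, had 7621 in iNSC_13F, 7411 in iNSC_14F and 4476 in NSC, against 4959 in MEF. The synaptic adhesion genes Nlgn3 and Lrrc4c and the secretory granule gene Scg3 reached 608.5, 853.5 and 928.1 in NSC. The 10 neuron markers summed to 914 in iNSC_13F, 595 in iNSC_14F and 1672 in NSC, against 4028 in MEF, with 6, 3, 4 and 2 above the floor, and their part in these levels was not tested.

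Genes that mark glia and neural stem cells were spread over all 3 classes. Of 15 astrocyte genes that were high in NSC, 4 were members (26.7%, against 32.0% of all such genes) and 7 were at the NSC level. Among the 7 were the glutamate transporter gene Slc1a3 and the glutamine synthetase gene Glul. The members were Slc4a4, a bicarbonate transporter, Chrdl1, a BMP antagonist, Aldh1l1, a folate enzyme used as an astrocyte marker, and Mt3, a metallothionein of the brain. Slc4a4 had 366.4 in iNSC_13F, 697.9 in iNSC_14F and 2098 in NSC, against 368.5 in MEF. Its 3 other probe sets above the floor in NSC did not meet the rule, with iNSC_14F minus MEF at -0.17, 1.08 and 1.59 (log2). Aldh1l1 had 134.7, 143.9 and 489.2, against 86.8 in MEF. The 10 astrocyte markers summed to 19526 in iNSC_13F, 30064 in iNSC_14F and 6492 in NSC, against 622 in MEF. Most of that sum was Aldoc, an aldolase, with 17206 in iNSC_13F, 28303 in iNSC_14F and 4520 in NSC, against 146.8 in MEF. The part of astrocyte-like cells in these levels was not tested.

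Of 16 radial glia and neural stem cell genes that were high in NSC, Nfib and Fut9 were members (12.5%, against 32.0% of all such genes). Another 6 were at the NSC level and 8 were neither. Nfib, a transcription factor of glial development, had 572.5 in iNSC_13F, 1058 in iNSC_14F and 5630 in NSC, against 832 in MEF. Fut9, which makes the LewisX carbohydrate on neural stem cells, had 64.7, 73.0 and 1230, against 3.70 in MEF. Fabp7, Hopx, Lfng, Nfia, Rfx4 and Slc1a3 were at the NSC level, so Nfia and Nfib, members of the same factor family, fell into different classes. In the RFX family Rfx4 had 11681 in iNSC_13F, 10675 in iNSC_14F and 12110 in NSC, against 4.36 in MEF. Rfx3, which acts in ciliated cells, had 61.1, 97.1 and 1619, against 4.76 in MEF, and was a member. None of the 5 Notch pathway genes and none of the 7 regional transcription factors that were high in NSC was a member, against 32.0% of all genes that were high in NSC. Of 6 oligodendrocyte lineage genes that were high in NSC, 4 were at the NSC level and Lhfpl3 was a member (16.7%, against 32.0%).

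The 10 members with the highest NSC signal were Nucks1, Tcf4, Idi1, Rev3l, Slc12a2, Anp32a, Tfrc, Psip1, Bhlhb9 and Zfp24, and all were above the floor on all 4 arrays. Nucks1, a chromatin-associated protein, had 3469 in iNSC_13F, 5313 in iNSC_14F and 22328 in NSC, against 5335 in MEF, and was 4.18-fold higher in NSC than in MEF. Idi1, an enzyme of isoprenoid and cholesterol synthesis, had 1362, 1684 and 10214, against 1302 in MEF. Slc12a2, the sodium-potassium-chloride cotransporter, had 998.5, 1115 and 7648, against 698.2 in MEF. The transferrin receptor gene Tfrc had 723.7 in iNSC_13F, 870.2 in iNSC_14F and 6488 in NSC, against 1381 in MEF. The probe sets of Nucks1 disagreed in size. Another 4 that were above the floor in NSC had NSC minus MEF differences of 0.65, 0.69, 0.71 and 0.73 (log2), and none met the rule. The brightest of them read 2141.6 in iNSC_13F, 2109.5 in iNSC_14F and 5012.9 in NSC, against 3199.2 in MEF. Both other probe sets of Slc12a2 and the other 1 of Idi1 met the rule, and those of Tfrc were below the floor. Neither of the 2 others of Anp32a met it. They read 1170.1 and 3219.5 in iNSC_13F, 1663.4 and 3900.3 in iNSC_14F, and 1682.3 and 3360.7 in NSC, against 363.8 and 1356.9 in MEF. By these probe sets the induced samples lay near NSC.

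DNA repair and chromatin genes were looked at after the values were seen. Of 66 DNA repair and replication checkpoint genes with a probe set 12 were high in NSC, 10 of them (83.3%) were members and none was at the NSC level, against 32.0% members among all genes that were high in NSC. Rev3l, the catalytic subunit of DNA polymerase zeta, had 411 in iNSC_13F, 608.8 in iNSC_14F and 8257 in NSC, against 538 in MEF, and was 15.3-fold higher in NSC than in MEF. Hus1, of the checkpoint clamp, had 497.9, 401.7 and 1786, against 414.1 in MEF. Of 61 chromatin modifiers 13 were high in NSC and 10 (76.9%) were members, against the same 32.0%. Ezh2, the methyltransferase of Polycomb repressive complex 2, had 1394 in iNSC_13F, 1886 in iNSC_14F and 5755 in NSC, against 1249 in MEF. Nasp, a histone chaperone, had 864.2, 767.5 and 5439, against 1131 in MEF. Tet1, which oxidises methylated cytosine, had 39.6, 198.6 and 885.5, against 18.0 in MEF. Ezh2 and Nasp were above the floor on all 4 arrays, while Tet1 was above it in iNSC_14F and NSC.

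Zinc finger genes were numerous. Of 336 genes whose symbols begin with Zfp, 35 were high in NSC, 24 were members and 4 were at the NSC level. Members thus made up 68.6% of the Zfp genes that were high in NSC, against 32.0% of all genes that were, and 7.14% of all Zfp genes, against 1.21% of all genes. This group was also formed after the values were seen. Their signals ran from 459 to 6292 in NSC, against 4.34 to 575.6 in MEF. Of the 24, 20 were below the floor on both induced arrays, against 90 of all 220 members. In MEF 16 of the 24 were above the floor, against 132 of all 220 members. Where MEF alone of these 3 arrays was above the floor, the fall below MEF is capped by the floor. Zfp24 had 523.6 in iNSC_13F, 692.8 in iNSC_14F and 6292 in NSC, against 575.6 in MEF, and Zfp770 had 187, 279.1 and 4307, against 335.7 in MEF.

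Genes of cell division that were high in NSC mostly lay outside both classes. Of 44 mitosis genes 13 were high in NSC, 2 were members (15.4%, against 32.0% of all genes that were high in NSC) and 11 were neither. None was at the NSC level. The 11 were all more than 2-fold lower in iNSC_13F than in MEF, and all but Nusap1 were also lower in iNSC_14F. For Mki67 the differences from MEF were -2.85 (log2) in iNSC_13F and -1.74 in iNSC_14F. Kif11, a spindle motor, had 78.6 in iNSC_13F, 99.7 in iNSC_14F and 1969 in NSC, against 202.8 in MEF, and Kif18a, another kinesin, had 5.57, 59.5 and 1411, against 174.4 in MEF. Both were below the floor in the induced samples and above it in MEF. Of 6 genes of the condensin and cohesin list that were high in NSC, Esco1 and Esco2, which acetylate cohesin, were members (33.3%, against 32.0%). The other 4 were lower than MEF on both induced arrays, for Stag2 by -3.49 (log2) in iNSC_13F and -1.85 in iNSC_14F.

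Over the 19 lists, without those drawn up after the values were seen, 660 different genes had a probe set and 125 were high in NSC. Of these 125 genes, 38 were members and 38 were at the NSC level. Among all 688 genes that were high in NSC, 220 (32.0%) were members, so the share of members on the 19 lists was no higher. The other 182 members were on none of these lists.

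Among the 88 members above the floor on all 4 arrays no value is a bound. Their median log2 difference was 2.38 for NSC minus MEF, -2.56 for iNSC_13F minus NSC and -2.15 for iNSC_14F minus NSC. Against MEF it was -0.10 in iNSC_13F and 0.36 in iNSC_14F, with 38 and 63 members higher than MEF. In 31 members the induced samples lay on opposite sides of MEF. The rule keeps members within 2-fold of MEF, and the shares over all genes are not given here. Nothing is therefore read from these counts against MEF. The level was higher in iNSC_14F than in iNSC_13F for 70 members (79.5%), against 59.2% of the 8150 genes that all 4 arrays measured above the floor, and the median of iNSC_13F minus iNSC_14F was -0.42, against -0.10. The members with the largest such differences were Peg3, Itgb8, Tbl1xr1, Trim37 and Phkb, all lower in iNSC_13F. Peg3, an imprinted zinc finger gene, had 317.8 in iNSC_13F, 831.7 in iNSC_14F and 2433 in NSC, against 548.3 in MEF.

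**Figure D2:**
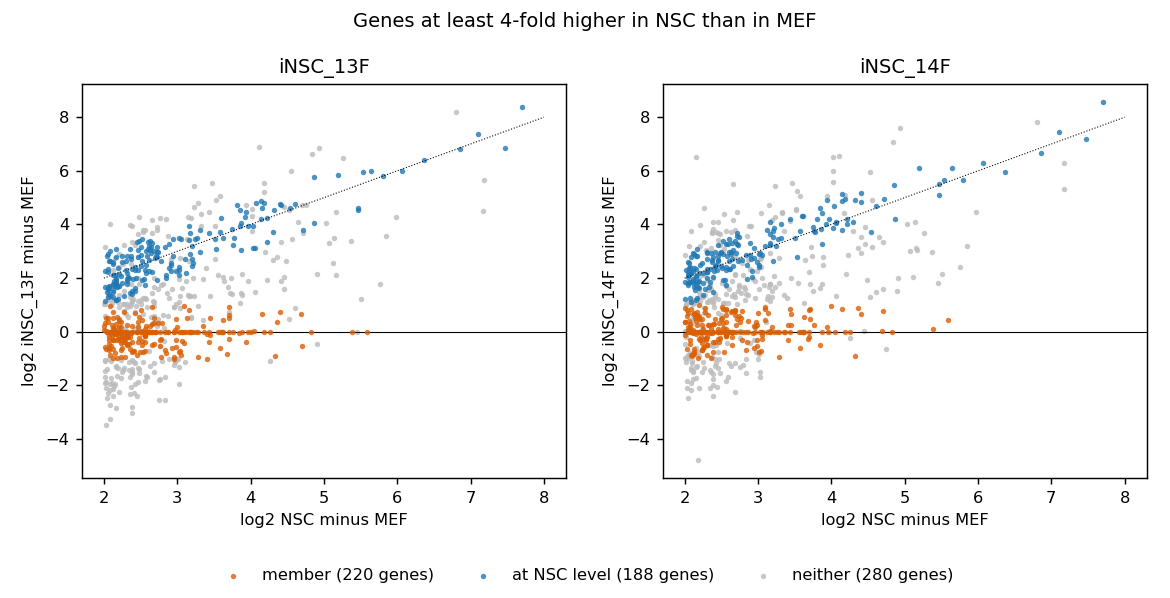
Log2 difference from MEF of iNSC_13F (left panel) and iNSC_14F (right panel) against that of NSC, 1 point per gene, for the 220 members, the 188 genes at the NSC level and the 280 that were neither. The solid line marks the MEF level and the dotted line equality with NSC, and the members form a band around the solid line because the rule placed them there.

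Most members were measured by further probe sets, which come from the same arrays and RNA and entered the rule only through the choice of the brightest. Of the 220 members 166 had at least 1 other probe set, which made 352 probe sets, and 63 of these (17.9%) met the same rule. Over all 352 the median was 0.53 (log2) for NSC minus MEF, 0.00 for each induced sample minus MEF, -0.44 for iNSC_13F minus NSC and -0.46 for iNSC_14F minus NSC. Of the 231 above the floor on some array, 208 were higher in NSC than in MEF, 149 by at least 2-fold, and 16 were lower, 2 by at least 2-fold. Of the genes at the NSC level, all 224 other probe sets had a median of 0.72 for NSC minus MEF, 0.58 for iNSC_13F minus MEF and 0.65 for iNSC_14F minus MEF. Of these 41 (18.3%) met the rule of that class, a share near that of the members. Of the 156 above the floor on some array, 136 were higher in NSC than in MEF, 99 by at least 2-fold, and 9 were lower. All other probe sets of Ednrb, Elavl4, Rgs7bp and Slc12a2 met the rule where there were at least 2. For Ednrb they read 117.7 and 87.8 in iNSC_13F, 165.4 and 87.7 in iNSC_14F, and 2647.2 and 721.0 in NSC, against 81.7 and 90.6 in MEF. The 3 other probe sets of Fzd3 above the floor in NSC did not meet the rule. They read 653.8, 463.7 and 522.3 in iNSC_13F, 471.9, 304.2 and 289.1 in iNSC_14F, and 753.2, 318.2 and 332.4 in NSC, against 141.6, 152.3 and 286.5 in MEF. Both other probe sets of Calcrl were below the floor on every array.

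**Figure D3:**
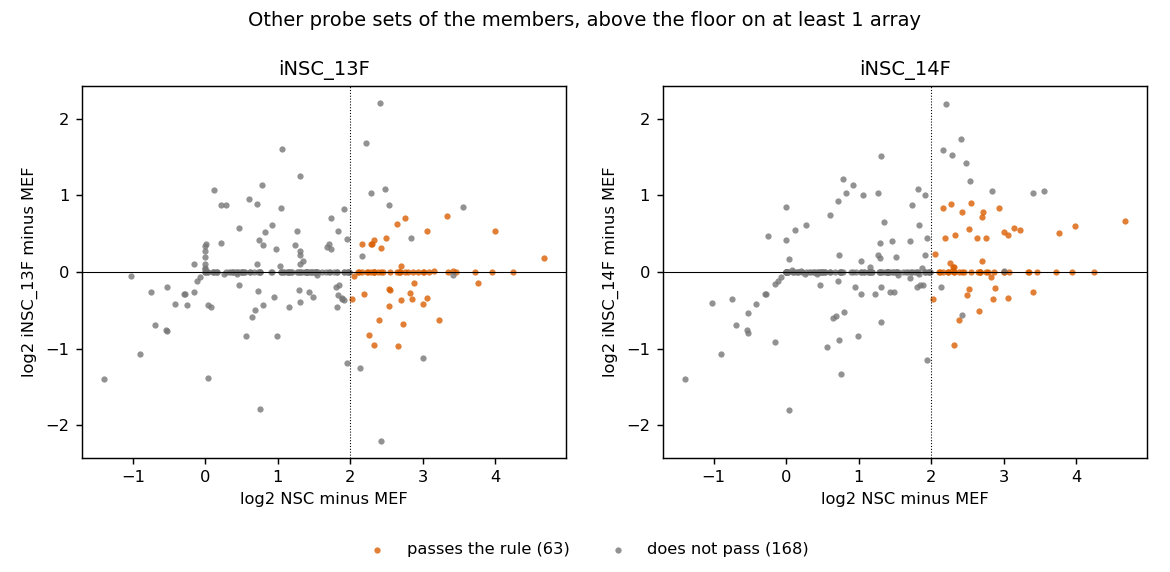
Log2 difference from MEF of iNSC_13F (left panel) and iNSC_14F (right panel) against that of NSC, 1 point for each of the 231 other probe sets of members above the floor on some array. The 63 that met the rule lie right of the dotted line at 2 and within 1 of the MEF level, and most of the rest lie left of it.

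The median gene length was 65.5 kb over the members, with quartiles of 23.9 and 141 kb, 27.4 kb over the genes at the NSC level, 46.6 kb over all genes that were high in NSC and 20.2 kb over all genes with a probe set. Genes over 100 kb made up 36.5% of the members, 22.9% of those at the NSC level, 30.7% of all that were high in NSC and 12.4% of all genes. The members below the floor in MEF had a median of 92.8 kb and those above it 58.6 kb. No test was made of these differences, since members were chosen on the arrays themselves.

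**Figure D4:**
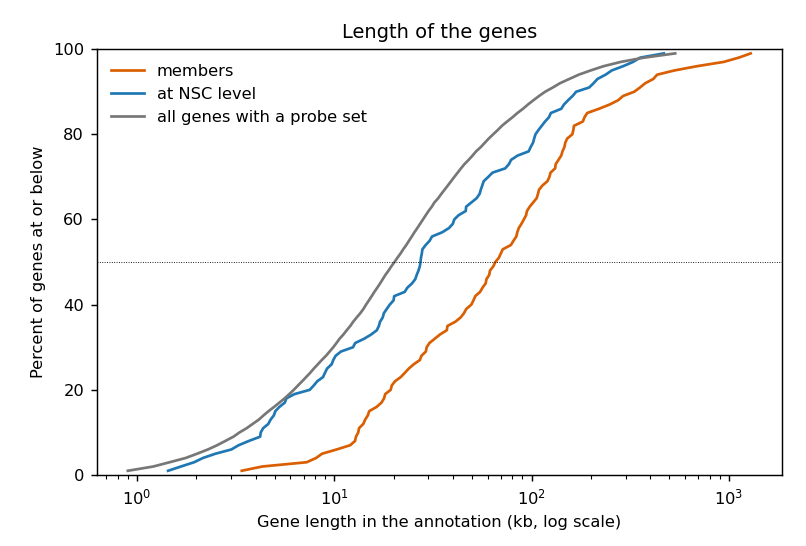
Percent of genes at or below a gene length (kb, log scale) for members, for genes at the NSC level and for all genes with a probe set. The curves cross the dotted middle line at 65.5, 27.4 and 20.2 kb, with that of the members farthest right.

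Of the 220 members 180 had an entry among the RefSeq promoters, and the most upstream start was used where there were several. The median GC content of the 250 bases before the start was 60.4% in members, 60.4% in all genes that were high in NSC and 57.6% in all genes. The observed over expected CpG ratio had a median of 0.741 in members, 0.661 in genes at the NSC level, 0.713 in all genes that were high in NSC, 0.733 in the genes above the floor somewhere and 0.633 in all genes. It was 0.545 in the 70 members below the floor in MEF and 0.798 in the 110 above it. The motifs searched on both strands were CAGCTG (the E-box of proneural factors), ACAATG (SOX), TTGGCA (the NFI site), TATAAA (the TATA box), CCAAT (the site of NF-Y) and TGACGTCA (the cyclic AMP response element), besides TCAGCACC (part of the REST element). CAGCTG was in 12.8% of members, 17.5% of genes at the NSC level and 12.5% of all genes. TTGGCA was in 7.22%, 14.9% and 11.2%, and CCAAT, which on the other strand overlaps TTGGCA where the letters read ATTGGCA, was in 39.4%, 47.4% and 35.8%. ACAATG was in 7.22% of members, 10.4% of genes at the NSC level and 7.77% of all genes, and TATAAA in 8.33%, 7.14% and 9.02%. TGACGTCA was in 1.11%, 0.649% and 2.23%, and TCAGCACC in 2.22%, 1.95% and 1.39%. Of the 6 stretches shown, those of Itgb8, Gabrg1 and Gabra2 held CCAAT at 1 place each, Gria4 held it at 222 and 5 bases before the start and Nucks1 at 18. Nucks1 also held TTGGCA at 243 and Gabrg1 held ACAATG at 247, and Ramp1 held none of the motifs. A match is a run of letters and not a bound site.

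Members lay next to each other on the chromosome, with no other gene of the array between them, in 8 pairs. There were 7 such pairs among the 188 genes at the NSC level and 60 among all 688 genes that were high in NSC, so nothing is read from the count. The widest gap was 2400 kb, between Gnai1 and Phtf2. Besides Opcml with Ntm and Gabrg1 with Gabra2 the pairs of members included Gbp7 and Gbp3, guanylate-binding proteins induced by interferon, 9.87 kb apart on chromosome 3. Gbp7 had 78.5 in iNSC_13F, 5.76 in iNSC_14F and 746.3 in NSC, against 73.8 in MEF, and Gbp3 had 118.9, 41.5 and 491.8, against 40.1 in MEF. These genes are close relatives, and their probe sets may share sequence. On chromosome 11 Ska2, Trim37 and Ppm1e follow each other, and Trim37 and Ppm1e overlap.

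On the X chromosome lay 22 of the 219 members with a position (10%), against 8.88% of the genes that were high in NSC and 3.41% of all genes. Among them were Gria3, Pcdh11x, Nlgn3, Chrdl1 and Rps6ka6, a kinase of the RSK family with 17.4 in iNSC_13F, 112.8 in iNSC_14F and 4355 in NSC, against 54.3 in MEF. The brightest probe set of Xist, the RNA that silences an X chromosome in female cells, had 3072 in iNSC_13F, 58.0 in iNSC_14F and 13134 in NSC, against 2893 in MEF. The Y-linked gene Eif2s3y had 106.1, 408.1 and 19.0, against 366.5 in MEF. The part of sex chromosome content in the X-linked members was not tested.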

How the data were processed

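Total RNA of 4 mouse samples was measured on 1-colour Affymetrix Mouse Genome 430 2.0 arrays. The deposited values are array intensities, 1 linear signal per probe set, for which the submitters' processing notes name MAS5, with no version given in the sources used here. The cell type label gave each sample its group.

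The arrays shared a trimmed mean of 500, so no further scaling was applied. Of 45101 probe sets, 34945 carried 1 gene in GEO's platform annotation, 932 several and 9160 none, besides 64 controls. Symbols were updated by gene ID through RefSeq (GRCm38.p6), with 34741 matched. Signals below 104 were set to 104, log2 was taken, and a gene took its probe set with the highest mean. Detection calls were not used. Precision is limited by 1 array per group, so no differences between samples were tested. The code for the rule was tested on simulated data with known members.

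The members, gene lists and alternatives were chosen with earlier results of these data known. By rule, named genes were the 20 members with the largest NSC minus MEF difference, the 10 above the floor on all 4 arrays with the largest gap from NSC to the higher induced array, the 10 brightest in NSC, up to 6 from each list, the 3 genes on each side of each threshold, neighbouring pairs, the 5 with the largest difference between induced arrays, and those whose other probe sets, at least 2, all met the rule. Members of lists drawn up after the values were seen, and Lifr and the genes set beside members, were named after their values were seen. The 6 members without an established symbol were counted and not named. Alternatives were quantile normalization, scaling to hybridization controls, other floors, a pseudocount of 16 in place of a floor, the median over probe sets, other probe set filters and other thresholds. Python 3.11.15, pandas 2.3.3, numpy 2.4.6, scipy 1.17.1 and matplotlib 3.10.9 were used.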

Additional observations from a re-analysis of the deposited data

Results flagged for a closer look

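In Itgb8 and Peg3 the induced samples lay on opposite sides of MEF, each by at least 0.5 on the log2 scale. Itgb8 was below MEF in iNSC_13F (-0.55) and above it in iNSC_14F (0.78), so that iNSC_13F minus iNSC_14F was -1.34. Peg3 was at -0.79 in iNSC_13F and 0.60 in iNSC_14F, a difference of -1.39. With 1 array per sample the difference between the induced samples was not tested.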

How the results depend on the processing

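The 220 members became 723 with scaling to the hybridization controls, 88 with only genes above the floor on all 4 arrays, 59 with NSC at least 3 log2 units above MEF and 124 with the induced samples within 0.5 of MEF. Requiring every probe set of a gene with NSC above the floor to meet the rule, chosen after seeing the data, left 117. Only 129 members had another probe set above the floor in NSC, and in 26 of these all such probe sets met the rule. The rest of the 117 had none to check. Quantile normalization gave 210 (192 shared), a halved floor 203 (151 shared), a doubled floor 185 (135 shared), a pseudocount of 16 without a floor 165 (116 shared), the median over probe sets 159 (101 shared) and leaving out probe sets with shared sequence 221 (213 shared). Scaling to the controls moved the NSC minus MEF median over all genes measured above the floor on all 4 arrays from 0.04 to 0.93, and the cause of its larger count was not tested.

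The 38 members on lists became 61 with that scaling, 19 with the pseudocount, 25 with the probe set median and 5 with genes above the floor on all 4 arrays. Over members the NSC minus MEF median of 2.53 was 3.35 with control scaling and 1.93 with the probe set median. That of iNSC_13F minus NSC was -3.55 and -1.92, and that of iNSC_14F minus NSC was -3.35 and -1.78, and -1.95 with the doubled floor. The 88 members above the floor on all 4 arrays became 362 with control scaling and 55 with the doubled floor. The 49 members with another probe set that met the rule became 184 with control scaling and 21 with genes above the floor on all 4 arrays. Counts above the floor were not run for the pseudocount and the probe set median, nor the count of other probe sets for that median.

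Of 1575 recomputed differences of named genes 930 moved by less than 1.5-fold, 642 moved further and 3 turned. Fzd3 turned to 0.02 (log2) for iNSC_13F minus NSC with the probe set median, and its cause was not tested. Kcna2 turned to -0.46 for NSC minus MEF and 0.49 for iNSC_13F minus NSC with the pseudocount. The Kcna2 values match another of its probe sets, which was below the floor on every array. A further Kcna2 probe set met the rule, with 668.5 in NSC, against 6.6 in MEF. Signals near the floor limit the dim members. No paired analysis was possible because each group has 1 array.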
